A study of Mus musculus with 11 samples.

Results

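The Regnase, Roquin and ZFP36 RNA decay factors were followed as 7 genes out of 32469 gene symbols counted. The choice was by name, as members of these protein families, and used no measured value, though earlier results of these data were known. They are Zc3h12a and Zc3h12d (Regnase-1 and Regnase-4), Rc3h1 and Rc3h2 (Roquin-1 and Roquin-2), and Zfp36, Zfp36l1 and Zfp36l2. The counts came from bulk RNA-seq of precursor exhausted CD8+ T cells from Lewis lung carcinoma (LLC) tumors, started from a transplantable lung cancer line of the same mouse strain. Of the 11 wild-type female C57BL/6 mice, bought at 8 weeks of age and carrying tumors on both flanks, 5 were untreated and 6 received the anti-LAG-3 antibody C9B7W (labelled aLAG3), 200 µg into the peritoneum on days 14 and 16 of tumor growth. LAG-3 is an inhibitory receptor of exhausted T cells, and the study asked what its blockade changes in the cells that feed clonal expansion. The paper's methods place tumor excision for this experiment on days 14 and 18, the deposited description on days 14 and 21. In the paper's account the sequenced cells came from the later tumor, resected on day 18 after treatment had begun. Cells were sorted as CD8+PD-1+Ly108+TIM-3- with a further gate that is not reported here, and there are as many libraries as mice, numbered 1 to 5 in the untreated and 6 to 11 in the anti-LAG-3 group.

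Proteins of these families shorten the life of selected messenger RNAs. Regnases are endoribonucleases that cut stem-loops in the 3′ untranslated region (UTR), Roquins bind similar stem-loops, and the ZFP36 proteins bind AU-rich elements and recruit the CCR4-NOT deadenylase complex, which removes the poly(A) tail. In T cells they are known to restrain transcripts of cytokines, costimulatory receptors and NF-κB and cell cycle regulators. Regnase-1 and the Roquins are cut by the paracaspase MALT1 after T cell receptor engagement, and several of the factors are themselves encoded by short-lived messages.

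The AU-rich element that ZFP36 proteins prefer can be read in the genes of the factors themselves. The nonamer TTATTTATT was present in the annotated 3′ UTR of 5 of the 7 genes, once in each, and absent from the UTRs of Zc3h12a and Zc3h12d. Among 5983 tested genes with an annotated 3′ UTR, 6.74% held it. The UTRs of the 7 genes had a median length of 1835 bases against 951 bases over those genes, and the part of length in this share was not tested. The sites are shown because this is the element that ZFP36 proteins are known to bind. Each is a 30-base window of GRCm38 written 5′ to 3′ on the gene's strand with the nonamer in capitals, at chr7:28376950-28376979 (minus strand) for Zfp36, chr12:80108166-80108195 (minus) for Zfp36l1, chr17:84184913-84184942 (minus) for Zfp36l2, chr1:160970043-160970072 (plus) for Rc3h1 and chr2:37373286-37373315 (minus) for Rc3h2.
Zfp36: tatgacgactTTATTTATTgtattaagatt
Zfp36l1: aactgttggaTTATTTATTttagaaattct
Zfp36l2: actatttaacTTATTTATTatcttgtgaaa
Rc3h1: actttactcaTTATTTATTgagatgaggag
Rc3h2: caaagacattTTATTTATTttactctgtaa
The site lay 589 bases after the stop codon in Zfp36, 1404 in Zfp36l1, 821 in Zfp36l2, 2256 in Rc3h1 and 1928 in Rc3h2. A match is a description of letters and not a measured binding site.

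The libraries held 313524 to 1901374 counts, with medians of 566144 in untreated and 648675.5 in anti-LAG-3 mice. At these depths 3 counts, the floor used here, equal 1.58 to 9.57 CPM (counts scaled for library depth, here by TMM, except for floors and marker sums, which use total counts), and this covers counting error only. Summed over 7 CD8 T cell markers (Cd8a, Cd8b1, Cd3d, Cd3e, Cd3g, Trac and Thy1) the level was 6000 to 6395 CPM in untreated and 5902 to 6519 CPM in anti-LAG-3 mice. The sort was reflected in Havcr2 (TIM-3) at 0 to 7 counts per library, or 0 to 19.8 CPM, beside Pdcd1 (PD-1) at 489 to 787 CPM. The highest Havcr2 value was that of untreated library 2, from 6 counts. Slamf6, the gene of the sort marker Ly108, lay at 75.5 to 121 CPM, and Tcf7, a transcription factor of precursor exhausted cells that was not sorted on, at 59.3 to 164 CPM. The 8 markers of monocytes and macrophages together gave 12.6 to 47.7 CPM in untreated and 11.8 to 102 CPM in anti-LAG-3 mice. The highest sum of another cell type was that of 3 endothelial markers, at 137 to 200 CPM in untreated and 147 to 214 CPM in anti-LAG-3 mice, of which Pecam1, which T cells also express, was the one above the filter on low counts. Dendritic cell markers summed to 25.2 to 51.5 CPM and NK cell markers to 9.45 to 33.8 CPM over the 11 libraries. The sums for CD4 T cells, B cells, neutrophils, erythroid cells, fibroblasts and tumor or epithelial cells were each between 0 and 19.1 CPM. The erythroid sum was 7.23 and 9.57 CPM in anti-LAG-3 libraries 6 and 10 and under 1 CPM in the others. The groups overlapped in each of these sums, and their part in the results was not tested. Fewer cells of a kind and less RNA per cell cannot be told apart in bulk samples.

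All 7 genes were expressed above the filter on low counts, and none of the 7 was called after LAG-3 blockade. Their log2 fold changes, anti-LAG-3 over untreated, lay between -0.21 and 0.21, with 2 higher and 5 lower and a median of -0.12, beside 51.1% higher and a median of 0.0040 over the 6949 genes tested. By the quasi-likelihood test of edgeR, adjusted over all tested genes by Benjamini-Hochberg, 0 of 7 had an adjusted p under 0.05, where the background was 0 of 6949 genes (0%) and the smallest adjusted p over all genes was 0.9996. At an unadjusted p under 0.05 the count was again 0 of 7 (background 258 genes, 3.71%), though Zfp36 fell under it in some alternative fits. The CPM ranges of the groups were separate for 0 of 7 (background 33 genes, 0.475%). The plot of CPM by library shows these values for each gene.

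**Figure D1:**
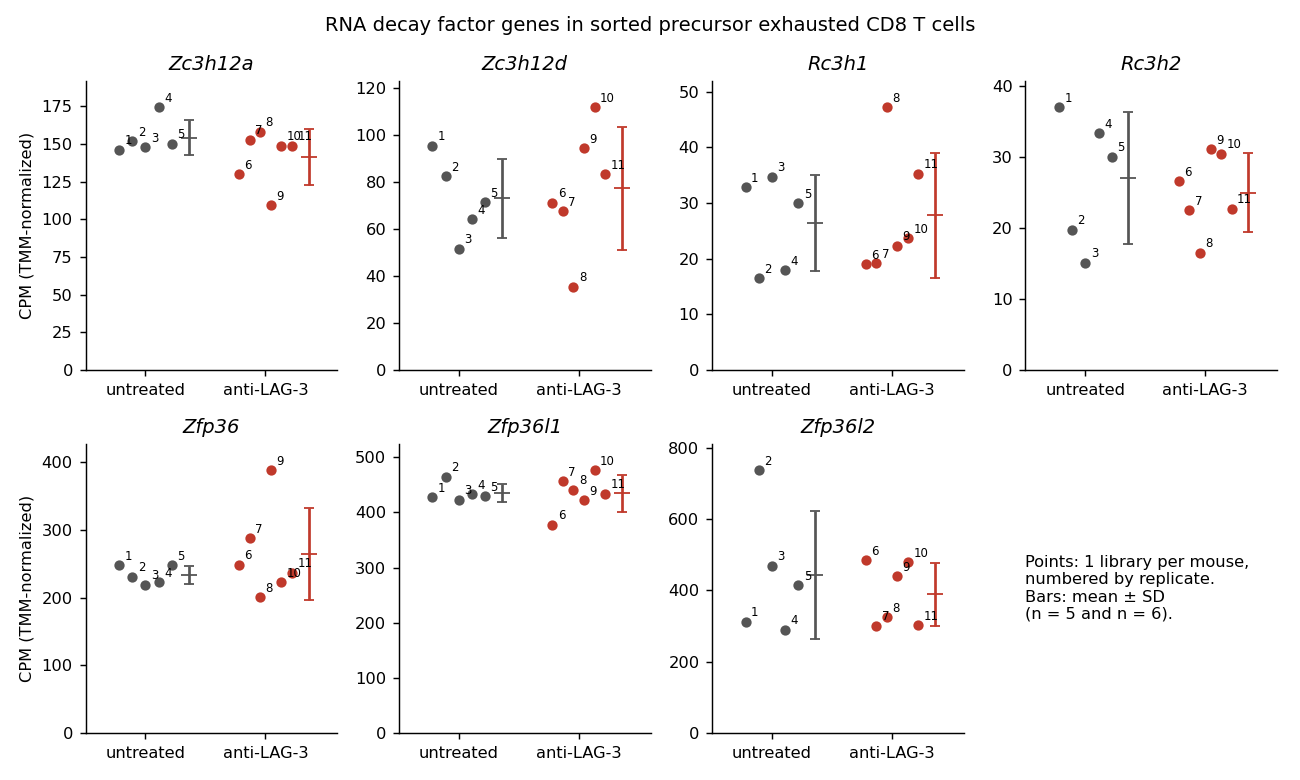
CPM (TMM-normalized, linear axis from 0) of the 7 RNA decay factor genes in each library. Points are libraries numbered by replicate, 1 to 5 untreated (grey) and 6 to 11 anti-LAG-3 (red), and bars are the mean ± SD of each group (n = 5 and n = 6). The groups overlap for each gene. Library 9 has the highest Zfp36 value (389 CPM) and the lowest Zc3h12a value (109 CPM), and library 2 has the highest Zfp36l2 value (738 CPM).

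Of the ZFP36 family, Zfp36 (tristetraprolin), the founding AU-rich element binding protein and an early response gene, had the largest positive difference. It had 248, 231, 219, 223 and 248 CPM in the untreated libraries 1 to 5, and a lowest value of 201, a median of 243 and a highest of 389 CPM in the anti-LAG-3 libraries. The untreated libraries stood close together and inside the anti-LAG-3 range, whose top was library 9 alone, with library 7 next at 288 CPM. The means were 234 ± 13.6 CPM without (SD, n = 5) against 264 ± 67.4 CPM with the antibody (SD, n = 6), and the fitted log2 ratio was 0.21 (SE, the standard error, 0.13, 95% interval -0.05 to 0.47, unadjusted p = 0.109, adjusted p = 0.9996 in the edgeR fit). Without library 9 it was 0.063. With the primer barcode as a covariate it was 0.27 (unadjusted p = 0.0372, adjusted p = 0.9998, edgeR), and the lowest unadjusted p with 1 library left out was 0.0373 (edgeR). The gene lies at chr7:28376784-28380253 in GRCm38, the build of all positions given here, and 4.21% of the 50-base stretches of its transcripts also occur in other genes, among them the antisense Gm44710 (125 shared exon bases).

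Zfp36l1 (chr12:80107754-80113013), a paralog known to act with Zfp36l2 in lymphocyte quiescence, was the steadiest of the 7. The untreated libraries held 427, 465, 423, 433 and 430 CPM, and the anti-LAG-3 libraries a lowest of 378, a median of 437 and a highest of 477 CPM. The highest and lowest values of all both belonged to anti-LAG-3 mice, so the untreated range lay wholly inside. Means were 435 ± 16.8 CPM without (SD, n = 5) against 435 ± 33.8 CPM with the antibody (SD, n = 6), and the fitted log2 ratio was -0.0034 (SE 0.083, 95% interval -0.17 to 0.17). A rise of more than 1.12-fold or a fall to under 0.886 of the untreated level was outside this interval. Of the 50-base stretches of Zfp36l1 transcripts, 54.4% also occur in Gm26669, a long noncoding RNA on the opposite strand that shares 1672 exon bases and was not analysed here, or in the pseudogene Zfp36l1-ps. Whether strand was used in counting is not stated, so the Zfp36l1 count is uncertain to that extent.

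Zfp36l2 (chr17:84183931-84187947), the third family member, varied most between mice in absolute terms. Its untreated libraries had 312, 738, 469, 289 and 415 CPM, and its anti-LAG-3 libraries a lowest of 301, a median of 383 and a highest of 485 CPM. Library 2, of an untreated mouse, stood above all others, library 4, at 289 CPM, lay just below the lowest anti-LAG-3 value, and the other untreated libraries lay within the anti-LAG-3 range. The means were 445 ± 180 CPM without (SD, n = 5) against 389 ± 88.8 CPM with the antibody (SD, n = 6), and the fitted log2 ratio was -0.16 (SE 0.17, 95% interval -0.51 to 0.19). Its sign did not hold. Library 2 is the only one with primer barcode 10 and holds 317449 counts, and without it the log2 fold change was 0.047, with the primer barcode as a covariate 0.11, and within the 6 libraries of barcode 9 0.027. By their names, libraries 2 and 3 (untreated) and 10 (anti-LAG-3) also carry the same sample tag and differ in the barcode alone. They had 738, 469 and 480 CPM, while libraries 6 and 9 with other tags had 485 and 441 CPM. Libraries 4 and 5, both untreated, share another tag and had 289 and 415 CPM. The part of the tag in these values was not tested.

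Among the Regnases, Zc3h12a (chr4:125118423-125127840), the RNase best known for restraining T cell activation, differed little between the groups. The untreated libraries had 146, 152, 148, 174 and 150 CPM, the anti-LAG-3 libraries a lowest of 109, a median of 149 and a highest of 158 CPM. Library 4 stood above the other untreated libraries, and libraries 9 and 6 (109 and 130 CPM) below all of them. Means were 154 ± 11.5 CPM without (SD, n = 5) against 141 ± 18.3 CPM with the antibody (SD, n = 6), and the fitted log2 ratio was -0.12 (SE 0.11, 95% interval -0.36 to 0.11, unadjusted p = 0.278, adjusted p = 0.9996 in the edgeR fit). Without library 9 it was -0.057. A rise of more than 1.08-fold was outside the interval, while a fall to 0.781 of the untreated level was not.

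Zc3h12d (chr10:7832470-7870396), a lymphoid Regnase and one of the genes of the study's expansion signature, which was chosen on other cells, stood at percentile 66.1 of mean CPM among the tested genes. It had 95.3, 82.4, 51.6, 64.0 and 71.3 CPM in the untreated libraries, and a lowest of 35.4, a median of 77.2 and a highest of 112 CPM in the anti-LAG-3 libraries. Both ends of the range were anti-LAG-3 libraries, 8 and 10, so treated mice lay on either side of the untreated ones. The means were 72.9 ± 16.8 CPM without (SD, n = 5) against 77.2 ± 26.0 CPM with the antibody (SD, n = 6), and the fitted log2 ratio was 0.047 (SE 0.19, 95% interval -0.35 to 0.45). The sign turned when untreated library 3 (-0.10), anti-LAG-3 library 9 (-0.040) or anti-LAG-3 library 10 (-0.031) was left out.

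The Roquins were the lowest of the 7, and counting error took a large part of their spread. Rc3h1 (chr1:160906418-160974978), the gene of the sanroque mutation in autoimmune mice, had 32.8, 16.5, 34.7, 17.9 and 30.01 CPM in the untreated libraries, and a lowest of 19.0, a median of 23.0 and a highest of 47.2 CPM in the anti-LAG-3 libraries. In each group some libraries lay near 18 CPM and others above 30 CPM, with 5 to 40 counts behind an untreated value. The mean was 26.4 ± 8.57 CPM without (SD, n = 5) against 27.8 ± 11.2 CPM with the antibody (SD, n = 6), whereas the fit, which gives deep libraries more weight, put the log2 fold change at -0.21 (SE 0.26, 95% interval -0.74 to 0.32). The 2 measures thus differed in sign, and a fall to 0.598 of the untreated level was inside the interval.

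Rc3h2 (chr2:37370069-37422903), the partly redundant paralog, had 37.0, 19.8, 15.1, 33.3 and 30.01 CPM in the untreated libraries, and a lowest of 16.5, a median of 24.6 and a highest of 31.0 CPM in the anti-LAG-3 libraries. The anti-LAG-3 values lay inside the untreated range. Means were 27.0 ± 9.23 CPM without (SD, n = 5) against 25.0 ± 5.51 CPM with the antibody (SD, n = 6), and the fitted log2 ratio was -0.12 (SE 0.25, 95% interval -0.64 to 0.39), which became 0.11 without untreated library 1.

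**Figure D2:**
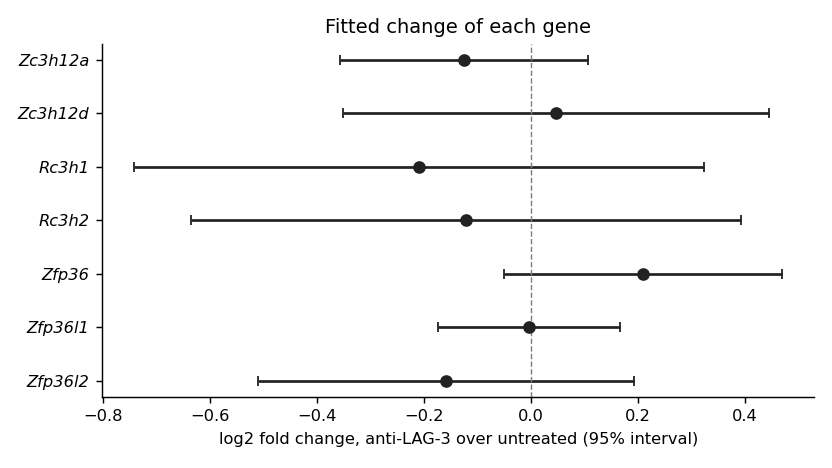
Log2 fold change of anti-LAG-3 over untreated for each of the 7 genes (points) with the 95% interval of the edgeR quasi-likelihood fit over 11 libraries (bars). Each interval covers 0, the narrowest being that of Zfp36l1 (-0.17 to 0.17) and the widest that of Rc3h1 (-0.74 to 0.32).

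Depth followed the primer barcode, with 566144 to 1901374 counts in the libraries of barcode 9 and 313524 to 451465 in the others, so the comparison was also made within the 6 libraries of barcode 9, 3 from each group. There the groups did not overlap for 2 of 7 genes, Zfp36 and Rc3h1, where 709 of the 6949 genes did not overlap (10.2%). The log2 fold change was 0.36 for Zfp36 (unadjusted p = 0.0207, edgeR) and -0.72 for Rc3h1 (unadjusted p = 0.00803, edgeR), with an adjusted p of 0.988 for each. In the 4 libraries of barcode 8, 1 untreated and 3 anti-LAG-3, the mean log2 CPM differed by -0.020 for Zfp36 and by 0.84 for Rc3h1, so that both signs were opposite to those in barcode 9. A single untreated library stands behind those values, and they carry no test.

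The spread between mice was set beside the spread that counting alone gives. Over the 11 libraries the coefficient of variation of CPM was 6.02% for Zfp36l1 and 11.1% for Zc3h12a, where Poisson counting at these depths gives 6.51% and 11.2%. The reads were amplified by PCR and carry no molecular identifiers, and the fit gave these genes a biological coefficient of variation of 7.76% and 8.98%, so the nearness of the values does not show that mice were alike. For Rc3h2 the coefficient over libraries was 27.4% against 26.7%, and for Rc3h1 35.5% against 25.8%. As a ratio, Zfp36l2 stood furthest from its counting error, at 32.1% against 6.51%, followed by Zfp36 at 20.4% against 8.79% and Zc3h12d at 28.4% against 15.6%. The Zfp36 spread includes library 9 at 389 CPM, where the next highest value was 288 CPM.

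Levels of different genes were compared per kilobase of transcript, with the median length of the protein-coding transcripts in GENCODE M21. The order, over all 11 libraries, was Zfp36l1 (351 ± 21.1 CPM per kilobase), Zfp36l2 (117 ± 37.7), Zfp36 (95.3 ± 19.4), Zc3h12a (53.4 ± 5.90), Zc3h12d (18.4 ± 5.22), Rc3h1 (3.75 ± 1.33) and Rc3h2 (2.94 ± 0.807; SD, n = 11 for each). The mean CPM without the length gave the same order, from 435 CPM for Zfp36l1 to 25.9 CPM for Rc3h2, and this matters since the methods place the library barcode on the template-switch side and do not say how evenly reads cover a transcript. The ZFP36 genes therefore headed the list, the Regnases followed and the Roquins came last, on either scale. Of the 6 neighbours in this order, 4 differed in every library (exact two-sided sign-flip permutation test, p = 0.000977, the smallest that 11 libraries allow, adjusted p = 0.00146). Zfp36l2 and Zfp36 did not differ beyond their spread (mean log2 difference 0.26, higher in 6 of 11 libraries, exact permutation p = 0.104, adjusted p = 0.124), nor did Rc3h1 and Rc3h2 (0.32, higher in 7 of 11, exact permutation p = 0.201). These values depend on the length chosen. Zfp36l1 stood above Zfp36l2 by 1.64 on the log2 scale with the median length of 1239.5 bases, but by 0.37 with the longest transcript or the merged exons of each gene (exact permutation p = 0.0234 for each), and in CPM Zfp36l2 was the higher of the pair in libraries 2, 3, 6, 9 and 10. With the longest transcript, Rc3h2 stood above Rc3h1 and Zfp36l1 fell to 145 CPM per kilobase, still the highest.

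Within a library, the share of a family's counts held by each member does not depend on depth. Zfp36 held 21.4% ± 3.58 (SD, n = 5) of the ZFP36 family counts without and 24.2% ± 4.50 (SD, n = 6) with the antibody, Zfp36l1 39.8% ± 5.14 and 40.3% ± 5.31, and Zfp36l2 38.8% ± 8.55 and 35.5% ± 5.68. Zc3h12a held 68.1% ± 5.69 and 65.1% ± 9.89 of the counts of the 2 Regnases, and Rc3h1 49.4% ± 12.6 and 51.4% ± 13.2 of those of the 2 Roquins. Over all libraries none of these differences reached the SD of either group, and the ranges of the groups overlapped. Single libraries moved them. The Zc3h12a difference of -2.97 percentage points was -6.29 without library 8 and -0.685 without library 9, that of Rc3h1 went from 1.95 to 7.00 without library 3 and to -2.59 and -1.66 without libraries 8 and 4, and that of Zfp36l2 from -3.27 to -0.0974 without library 2. With 1 library left out, the Zfp36 difference of 2.72 points ranged from 1.34 to 3.77, and the Zfp36l1 difference of 0.55 from -1.29 to 2.06. Library 9 held the highest Zfp36 share (31.1%) and the lowest Zc3h12a share (53.7%).

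**Figure D3:**
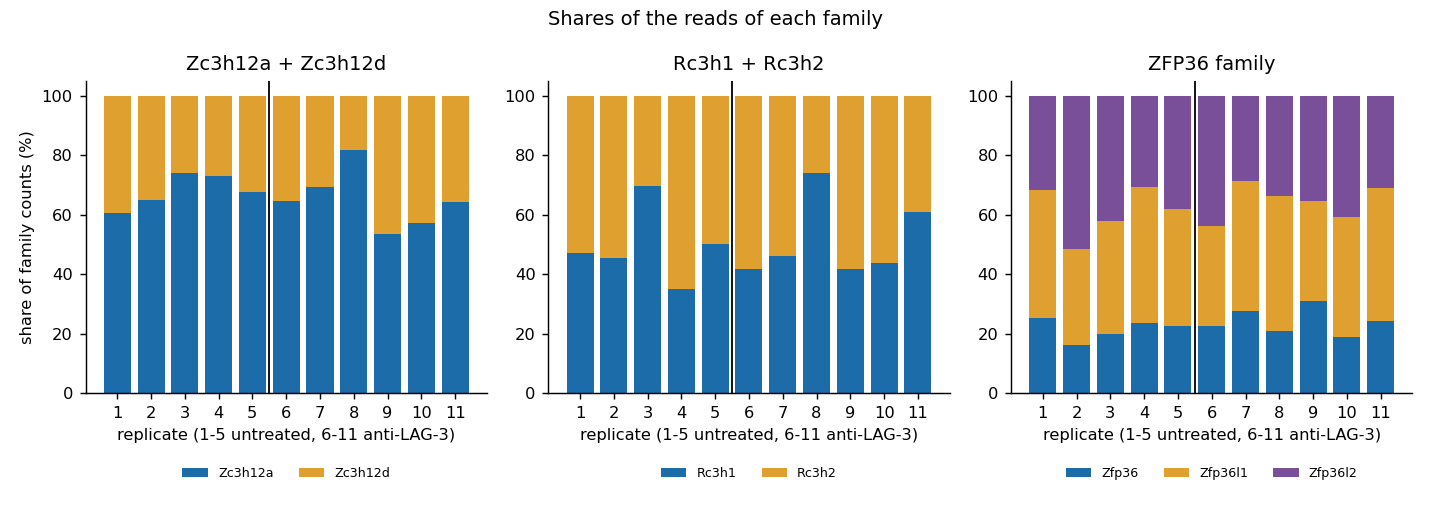
Share (%) of the counts of each family held by its members in each library, with libraries 1 to 5 (untreated) left and 6 to 11 (anti-LAG-3) right of the black line. The shares of the groups overlap in each family. Zfp36 takes 16.1% to 31.1% of its family, and Zc3h12a 53.7% to 81.7% of the 2 Regnases.

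Relations between the 7 genes over the 11 libraries were computed for 21 pairs on log2 CPM. None had an adjusted p under 0.05 (permutation test with 100000 resamples, Benjamini-Hochberg over the 21 pairs), and 2 had an unadjusted p under 0.05. The pair with the smallest p was Zc3h12a and Zfp36 (Pearson r = -0.79, permutation p = 0.0153, adjusted p = 0.186, and Spearman rho = -0.54, permutation p = 0.0931, adjusted p = 0.595). This relation rested on few libraries. Without libraries 4 and 9, the farthest from the median of Zc3h12a, r was -0.27, and without library 9 alone it was -0.33, while within barcode 9 it was -0.77. The other was Zc3h12d and Rc3h2 (r = 0.68, permutation p = 0.0177, adjusted p = 0.186, and rho = 0.60, permutation p = 0.0561, adjusted p = 0.589). Without libraries 8 and 10 their r was 0.56, and in the 6 libraries of barcode 9 it was 0.93 (exact permutation p = 0.00139, adjusted p = 0.0292 over the pairs).

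**Figure D4:**
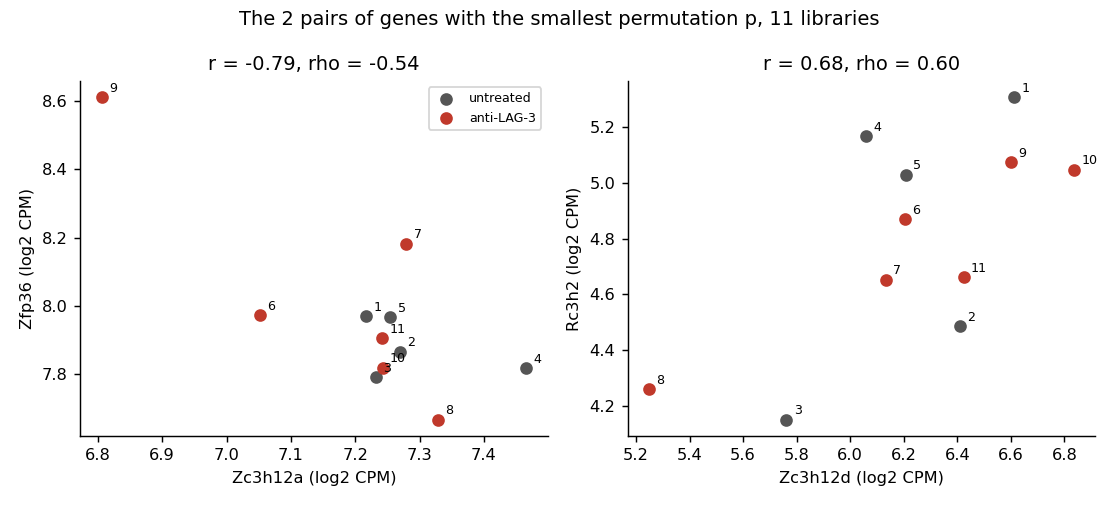
Log2 CPM of Zc3h12a against Zfp36 (left) and of Zc3h12d against Rc3h2 (right) in the 11 libraries, numbered by replicate, untreated in grey and anti-LAG-3 in red. On the left, library 9 stands alone at the top left (r = -0.79, and -0.33 without it), and on the right r is 0.68.

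The genes whose levels followed each factor most closely are given as a description, since each was picked as the highest over all tested genes. For Zfp36l2 these were Noc2l (r = 0.95), Atp1b3 (0.91) and Pdlim1 (0.86). For Zfp36l1 they were Cyth1 (0.93), Tnfrsf18 (GITR, a costimulatory receptor, 0.90) and Smpd1 (0.89), and for Zfp36 they were Spata5 (0.82), Eif4a2 (0.81) and Txndc15 (0.80). Zc3h12a was followed by Serpinb9 (an inhibitor of granzyme B, 0.91), Nelfcd (0.90) and Vcl (0.89). Zc3h12d was followed by Tmc6 (0.93), Ubqln4 (0.90) and Rnf213 (0.89), Rc3h1 by Lrif1 (0.86), Gm11942 (0.86) and Fas (0.85), and Rc3h2 by Ptpa (0.89), Atg4b (0.82) and Arfgef1 (0.82). All values are Pearson r of log2 CPM over the same 11 libraries, and they share library depth.

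Zfp36 is known as an early response gene, induced together with the immediate early transcription factors. Its level was set beside the 21 tested genes of the immediate early list, not all of which encode transcription factors. Over the 11 libraries its Pearson r was 0.79 with Fos and 0.71 with Jun, the AP-1 subunits. Library 9 was the highest for all 3 genes, with 341 CPM of Fos and 297 CPM of Jun beside 389 CPM of Zfp36, and without it r was 0.26 for Fos and 0.24 for Jun. Over the 21 genes the median r with Zfp36 was 0.16, and -0.12 without library 9. Fos was at 171 ± 8.26 CPM without (SD, n = 5) against 204 ± 74.5 CPM with the antibody (SD, n = 6). In library 9 the monocyte and macrophage markers summed to 11.8 CPM and the CD8 T cell markers to 5902 CPM, each the lowest of the 11 libraries, and the part of cell composition in its values was not tested.

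The Zfp36 promoter is shown since the gene is read here beside early response genes. Promoters of 300 bases (250 before to 50 after the start) were found in RefSeq (GRCm38.p6) for 6 of the 7 genes, not for Zfp36l2. The stretch from 120 to 31 bases before the start, chr7:28379259-28379348 on the minus strand, holds in capitals an EGR motif (GCGNGGGCG, starting at -105) and a CArG box (starting at -58).
Zfp36 promoter: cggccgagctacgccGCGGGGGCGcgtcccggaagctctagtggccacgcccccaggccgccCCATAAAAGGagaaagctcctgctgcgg
Of 32851 promoters of this length, 5.55% hold the EGR motif and 1.63% a CArG box, on either strand. Neither motif was found in the same window of Fos or Jun. An AP-1 motif (TGANTCA) was found in the promoters of Rc3h1 and Zfp36l1 (7.81% of all promoters). The CRE (TGACGTCA), ETS (CCGGAAGT), E-box (CACGTG) and NF-kB motifs were not found in the 6 windows.

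Of the wider families, 0 of 8 relatives in the count table reached the filter. Zc3h12b (Regnase-2) had 0 to 2 and Zc3h12c (Regnase-3) 0 to 6 counts per library, both at or near the 3-count floor, while Zfp36l3 was not analysed here. Zc3h12a and Zc3h12d were thus the Regnase genes above the filter in these cells.

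Regulators of the factors were tested for 19 of 20 genes, with 9 higher and 10 lower and a median log2 fold change of -0.012. None passed the adjusted threshold. Malt1, the protease that cuts Regnase-1 and the Roquins, differed by 0.19 (SE 0.11), and Dusp1, a phosphatase of the p38 pathway that controls ZFP36 phosphorylation, by 0.24 (SE 0.15), which was 0.14 without untreated library 4 and also without library 9.

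The decay machinery that the factors recruit was represented by 28 tested genes of 33, with 17 higher and 11 lower and a median of 0.015. Of these, 1 was lower and 0 were higher at an unadjusted p under 0.05, beside 2% and 1.71% of all tested genes. The lower gene was Cnot6l, a catalytic deadenylase subunit of CCR4-NOT, at 90.4 ± 12.7 CPM without (SD, n = 5) against 72.6 ± 12.8 CPM with the antibody (SD, n = 6), and the fitted log2 ratio was -0.30 (SE 0.14, adjusted p = 0.9996 in the edgeR fit). The unadjusted call was lost without any 1 of libraries 1, 2, 3, 6, 7, 8 and 11, and without library 7 the log2 ratio was -0.23. Cnot4 differed by 0.49 (SE 0.24) and Cnot8, another deadenylase subunit, by 0.33 (SE 0.19).

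Among known targets of Regnase and Roquin, 19 of 24 genes were tested, of which 14 were higher and 5 lower, with a median of 0.069. Of the ZFP36 targets 17 of 25 were tested, 11 higher and 6 lower, with a median of 0.084. In both lists, which share genes, the 2 genes higher at an unadjusted p under 0.05 were Myc and Nfkbia, and none passed after adjustment, beside 1.71% of all tested genes higher at that p. Myc, the growth regulator, had 42.9 ± 11.0 CPM without (SD, n = 5) against 60.8 ± 12.5 CPM with the antibody (SD, n = 6), and the fitted log2 ratio was 0.51 (SE 0.19, unadjusted p = 0.0140, adjusted p = 0.9996 in the edgeR fit). Nfkbia, the inhibitor of NF-κB, had 2333 ± 244 CPM without (SD, n = 5) against 2734 ± 471 CPM with the antibody (SD, n = 6), and the fitted log2 ratio was 0.22 (SE 0.084, unadjusted p = 0.0147). The groups overlapped for both genes, and the unadjusted call of each was lost without some single libraries. The log2 ratio of Myc was 0.32 (unadjusted p = 0.104, edgeR) without untreated library 3 and 0.39 (unadjusted p = 0.0571) without library 9. That of Nfkbia was 0.13 (unadjusted p = 0.0565, edgeR) without library 10 and 0.18 (unadjusted p = 0.0641) without untreated library 3, and with robust dispersions its unadjusted p was 0.0812. Ier3 differed by 0.47 (SE 0.27) and Cdk6 by 0.33 (SE 0.16).

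The nonamer was held by 8 of 16 tested ZFP36 targets with an annotated UTR and by 3 of 18 Regnase and Roquin targets. That of Nfkbia, at chr12:55489607-55489636 on the minus strand of GRCm38, is shown beside those of the factors, with the nonamer in capitals.
Nfkbia: ggaccacgttTTATTTATTgtgcttttgat
Over all tested genes, the 403 with a nonamer had a median log2 fold change of -0.0076 and the 5580 without one 0.0025, while the 89 with 2 or more had -0.031. Of the genes with a nonamer 48.1% were higher, of those without 50.7%.

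AU-rich element binding proteins of other families had 6 tested genes of 8, 1 higher and 5 lower, with a median of -0.091. Elavl1 (HuR), which stabilizes such messages, differed by -0.30 (SE 0.16), Hnrnpd (AUF1) by -0.12 (SE 0.14) and Tial1 by -0.10 (SE 0.14), none past the threshold. With 1 library left out Hnrnpd ranged from -0.22 (without library 1) to -0.0055 (without library 7) and Tial1 from -0.17 (without library 4) to -0.055 (without library 8). The immediate early genes had 21 tested of 25, 16 higher and 5 lower, with a median of 0.11. Of these, 3 were higher at an unadjusted p under 0.05 and none after adjustment, beside 1.71% of all tested genes higher at that p and 51.1% higher at any p. Egr1 had 41.2 ± 13.8 CPM without (SD, n = 5) against 63.3 ± 17.5 CPM with the antibody (SD, n = 6), and the fitted log2 ratio was 0.57 (SE 0.21, adjusted p = 0.9996 in the edgeR fit). Klf4 differed by 0.64 (SE 0.29) and Klf6 by 0.19 (SE 0.091), and their unadjusted calls were lost with single libraries left out, as without untreated library 4. The 6 list medians lay between -0.091 and 0.11 on the log2 scale, and both the fit and single libraries moved them. Over 10 alternative fits, some of which test other genes of a list, the median was 0.031 to 0.16 for the ZFP36 targets. It was 0.024 to 0.083 for the Regnase and Roquin targets and 0.048 to 0.19 for the immediate early genes. For the regulators it was -0.020 to 0.010, for the decay machinery -0.034 to 0.022 and for the other AU-rich element binding proteins -0.15 to -0.068. The median of the immediate early genes was 0.023 without library 9 and 0.057 without library 10, and that of the ZFP36 targets 0.021 without library 9, 0.042 without library 1 and 0.048 without library 3. The Regnase and Roquin targets had a median of 0.026 without library 7, 0.028 without library 10 and 0.041 to 0.044 without library 1, 5 or 8. Over all libraries left out in turn, the median was -0.077 (without library 11) to 0.043 (without library 6) for the regulators and -0.054 (without library 2) to 0.027 (without library 4) for the decay machinery, so that both signs turned, and -0.14 (without library 9) to -0.045 (without library 3) for the other AU-rich element binding proteins.

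**Figure D5:**
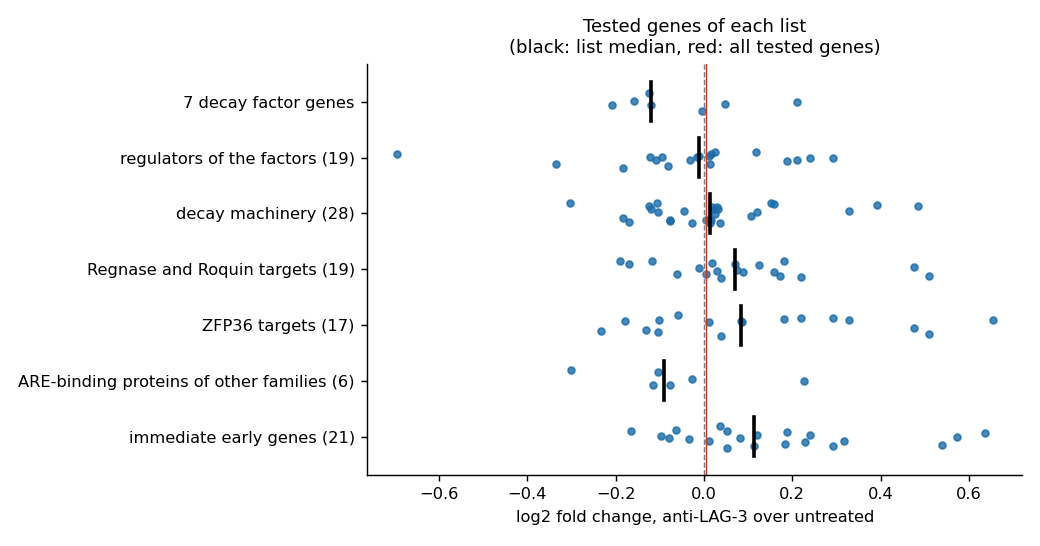
Log2 fold change of anti-LAG-3 over untreated for each tested gene of the lists (blue points, numbers of tested genes in brackets), with the median of each list in black, 0 as a dashed line and the median of all 6949 tested genes in red. The 7 factors lie between -0.21 and 0.21, and the list medians between -0.12 and 0.11.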

How the data were processed

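Bulk RNA-seq of sorted precursor exhausted CD8+ T cells was measured in 11 mice with 1 library each, with groups taken from the sample labels. The authors captured mRNA on oligo-dT beads, made cDNA by template switching, amplified and fragmented it, trimmed the reads, mapped them to reference RNA of GRCm38 and deposited raw counts per gene symbol (cutadapt 4.1 and Bowtie2 2.4.5 in the submitters' processing notes). How multi-mapped reads and strand were treated is not given in the sources used here. No 2 libraries were copies of each other (chi-square per degree of freedom 1.41 to 2.66 over 55 pairs). Replicate numbers are not shared between groups, so nothing was paired. Precision is limited by total counts of 313524 to 1901374 per library and by the spread between mice.

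From these counts, genes were filtered with filterByExpr (17.7 CPM in 5 or more libraries), normalized by TMM and tested with edgeR 4.0.16 quasi-likelihood (R 4.3.3), Benjamini-Hochberg over 6949 genes, with the dispersion steps of the study's methods. Standard errors are the absolute log2 fold change over the square root of F. Log2 CPM used a prior count of 2. Levels and correlations used Python 3.11.15 with scipy 1.17.1. Sequences came from GENCODE M21, where 96.3% of symbols were found, and RefSeq. The scripts were first checked on simulated counts with known changes, and every value given is from the deposited counts. DESeq2 1.42.0, limma 3.58.1, other scalings, filters, the primer barcode, transcript lengths and leaving out each library were alternatives. The 7 genes and all lists were chosen with earlier results of these data known. Named were the 7 genes, 3 relatives, the sort markers and Tcf7, the 3 smallest p-values of each list, any gene of a list with an adjusted p under 0.05, and for each factor the 3 genes with the highest r. Fos and Jun, and leaving library 9 out of the correlations with immediate early genes, were chosen after seeing the data. Some genes that this rule or the marker lists name are not reported here.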

Additional observations from a re-analysis of the deposited data

Results flagged for a closer look

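In 26 sets of log2 CPM, of shares within a family or of log2 total counts, 1 library was compared with the rest of its group by Dixon's test. The level used flags about 5% of sets by chance, and 2 stood apart. Zc3h12a in untreated replicate 4 was at a log2 CPM of 7.47 (174 CPM from 68 counts), above 146 to 152 CPM in the other untreated libraries. Zfp36l1 in untreated replicate 2 was at a log2 CPM of 8.87 (465 CPM from 141 counts), above 423 to 433 CPM in the others. Library 2 was the library with the highest Zfp36l2 value too, which did not stand apart by this test.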

How the results depend on the processing

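The number of the 7 genes with an adjusted p under 0.05 was 0 under each of 10 alternative fits and with each library left out. Of 145 alternative log2 fold changes of the 7 genes, 134 kept their direction and 11 reversed, with a lowest adjusted p of 0.725. The main values of the reversed genes were -0.0034 for Zfp36l1, 0.047 for Zc3h12d, -0.12 for Rc3h2 and -0.16 for Zfp36l2. Zfp36l1 was 0.0057 with no filter, and Zfp36l2 was 0.11 with the barcode as covariate and 0.027 within barcode 9. With 1 library left out the range was -0.35 to 0.11 for Rc3h2, -0.029 to 0.035 for Zfp36l1, -0.28 to 0.047 for Zfp36l2 and -0.10 to 0.23 for Zc3h12d. It was 0.063 to 0.27 for Zfp36, -0.17 to -0.057 for Zc3h12a and -0.39 to -0.083 for Rc3h1. With no filter, 24024 genes were tested and 7 were called (5830405F06Rik, mt-Co1, Ccl1, B2m, Nfkbia, Gzma and Plac8), none of them among the 7 factors, and Nfkbia had an adjusted p of 0.0443. All genes at an unadjusted p under 0.05 numbered 1086 with no filter, 166 with at least 10 counts in every library and 425 within barcode 9. The cause of these changes was not tested. Rc3h1 and Rc3h2 gave no value under the filter of 10 counts in every library. Within barcode 9, 2 of the 7 genes had groups that did not overlap, and 1 of 21 pairs passed (Zc3h12d and Rc3h2, r = 0.93). Over all libraries left out in turn, r was -0.87 to -0.33 for Zc3h12a and Zfp36 and 0.57 to 0.77 for Zc3h12d and Rc3h2. The log2 level difference of Zfp36l2 and Zfp36 was 0.35 with the longest transcript and 0.67 with merged exons, both past the threshold, and that of Rc3h1 and Rc3h2 was -0.26 and 0.84, the latter past it. In the 5 untreated libraries alone 0 neighbours passed, since an exact test there cannot go below 0.0625, with differences of 1.56, 0.67, 1.68 and 2.33 for the 4 pairs that differed over all libraries. No paired analysis was possible because the groups share no replicate numbers, and a single sample tag crosses the groups, in libraries 2, 3 and 10. At 1.58 to 9.57 CPM for 3 counts, depth limits the Roquins most.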
